A study of Mus musculus with 6 samples.

Results

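The genes described here are 43 receptor tyrosine kinases and growth factor ligands, taken by gene symbol from a table of raw read counts for 18260 mouse genes. All 43 symbols were in the table, 26 of them receptors and 17 of them ligands. The values come from RNA sequencing of primary hepatocytes isolated from liver tumours that a carcinogen had induced in male mice. In 3 Ripply1 ΔHep libraries the mice carried floxed Ripply1 alleles, with loxP sites around exons 1 to 3, together with Alb-Cre, a recombinase transgene driven by the albumin promoter and active in hepatocytes. In 3 Ripply1 F/F libraries the mice carried the floxed alleles without the transgene. Every mouse received 1 intraperitoneal dose of diethylnitrosamine (DEN), a liver carcinogen, at 90 μg per g and an age of 6 weeks. After 3 weeks without treatment, phenobarbital (PB), a liver tumour promoter, was given at 0.05% of the diet for 27 weeks. Hepatocytes were isolated 30 weeks after the DEN dose, so both genotypes gave tumour cells. Ripply1 encodes a transcriptional co-repressor that acts with T-box factors. Nothing in the labels says that the libraries of a genotype came from separate animals, so p-values measure only how these samples vary, and some of that variation may be technical.

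Receptor tyrosine kinases are membrane proteins with an extracellular domain for a ligand and an intracellular kinase. Ligand binding brings receptor chains together, the kinases phosphorylate each other's tails, and adaptor proteins that dock there feed the RAS–MAPK, PI3K–AKT and phospholipase C routes. In liver, EGFR and MET are the main mitogenic receptors of hepatocytes during regeneration, the insulin receptor sets hepatocyte metabolism, and PDGF receptors belong mainly to stellate cells. VEGF receptors belong mainly to endothelial cells, and CSF1R to macrophages.

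Libraries held between 27772849 and 35894395 counts, and 1 CPM (count scaled to library size, with sizes adjusted by the trimmed mean of M values) stood for 26.7 to 37.9 counts. Ripply1 itself had 1, 1 and 2 counts in ΔHep libraries, against 13, 8 and 12 in F/F libraries. All ΔHep libraries were lower, with an exact two-sided permutation p for its CPM of 0.1, the smallest that 3 against 3 libraries allow. Hepatocyte markers led both groups, with a sum over 10 genes of 105872 to 132401 CPM in ΔHep and 119583 to 126033 CPM in F/F, and 0 of the 10 passed the edgeR test, with 2 lower at an unadjusted p under 0.05 and 1 called lower by DESeq2 and 0 by limma-voom. Markers of other liver cells were present as well. The 12 stellate cell and fibroblast markers in the table summed to 682 to 909.7 CPM in ΔHep and 334 to 514 CPM in F/F, with 4 of 12 tested past the threshold. The 12 endothelial markers summed to 515 to 636 CPM in ΔHep and 298 to 468 CPM in F/F, with 1 of 12 past it. The 12 macrophage and Kupffer cell markers summed to 457 to 580.0 CPM in ΔHep and 213 to 546 CPM in F/F, with 2 of 12 past it. The 11 cholangiocyte markers in the table summed to 91.0 to 172 CPM in ΔHep and 50.8 to 108 CPM in F/F, with 5 of 9 tested past it, and of these Cldn4 and Cftr were at 0 in at least 1 library. F/F replicate 3 stood apart from the other F/F libraries in its macrophage sum, 546 CPM, where the other F/F libraries had 213 and 248 CPM. Its cholangiocyte sum was 108 CPM, where the others had 52.1 and 50.8 CPM. It was also the highest F/F library for stellate, endothelial, T and NK, B and plasma, and cycling cell markers, but not for hepatocyte or neutrophil markers. Without F/F replicate 3, the markers past the threshold numbered 7 of 12 for stellate cells, 9 of 12 for macrophages, 8 of 12 for endothelial cells, 7 of 10 for cholangiocytes and 1 of 10, lower, for hepatocytes. In that fit 8.28% of all tested genes passed, against 1.68% in the main fit. Without each of ΔHep replicate 2, ΔHep replicate 3, F/F replicate 1 and F/F replicate 2, 0 markers of these lists passed. In these fits 4, 5, 2 and 1 genes of the whole table passed. At an unadjusted p under 0.05, higher in ΔHep, were 9 or 10 stellate, 4 or 5 macrophage, 5 or 9 endothelial and 6 or 7 cholangiocyte markers. Without F/F replicate 1, 1 macrophage marker was lower at that level. DESeq2 called 9 stellate, 4 macrophage, 5 endothelial and 7 cholangiocyte markers, and limma-voom 1, 0, 0 and 0. Of the whole table, DESeq2 called 8.09% and limma-voom 0.605%. Summed markers of T and NK cells, of B cells with plasma cells, of neutrophils and of cycling cells were also higher in every ΔHep library than in every F/F library. Past the threshold were 0 of 10, 0 of 7, 0 of 2 and 3 of 8 tested markers of these lists in edgeR (1 of 10, 1 of 8, 1 of 4 and 6 of 8 without F/F replicate 3), with 6, 5, 2 and 8 at an unadjusted p under 0.05, all higher. DESeq2 called 2 T and NK, 1 B and plasma and 1 neutrophil marker higher, and limma-voom 0 of each. Of the cycling markers DESeq2 called 7 higher and limma-voom 3. The neutrophil markers Mpo, Elane, Cxcr2 and Retnlg and the B cell marker Pax5 were at 0 in at least 1 library. The cycling markers summed to 33.1 to 34.4 CPM in ΔHep and 4.58 to 14.2 CPM in F/F. In bulk RNA, fewer cells of a type and less RNA per cell cannot be told apart.

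Ntrk2, a receptor, and Pdgfb, a ligand, rose in ΔHep libraries, and the other 39 tested members did not pass the test. These libraries also held RNA of other liver cells, and which cells the 2 rises came from was not tested. Ntrk2 encodes TrkB, the receptor of brain-derived neurotrophic factor, and was 4.84-fold higher. Pdgfb encodes the B chain of platelet-derived growth factor and was 3.17-fold higher. The members with the highest levels per kb of annotated exon in F/F were Egfr, Fgf1, Vegfa, Met and Insr. They did not pass, with log2 fold changes (log2FC) between -0.40 and -0.03. Those of Met and Insr were 0.06 when library totals replaced the scaling. The test was edgeR's quasi-likelihood F test of ΔHep over F/F across 14552 genes, with Benjamini-Hochberg adjustment and a threshold of 0.05. Of the 43 members, 41 passed the filter on low counts, and Areg and Ror2 did not.

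Past the threshold were 2 of 41 tested members (4.88%), both higher in ΔHep, against 1.68% of all tested genes, of which 1.51% were higher and 0.165% lower. With edgeR, 0 members were lower, at an unadjusted p under 0.05 as well, and DESeq2 and limma-voom also called 0 lower. At an unadjusted p under 0.05 stood 14 members, all with positive fold changes (34.1%), against 14.1% of all tested genes on that side, while 6.97% of all tested genes were lower at that level. Groups did not overlap for 12 members. In 11 of them every ΔHep library was higher than every F/F library (26.8%), against 15.3% of all tested genes, and in 1, Ryk, every ΔHep library was lower (2.44%), against 11.8%. Of 41 members, 30 had a positive fold change and 11 a negative one, where 48.8% of all tested genes had a positive one. The median log2FC was 0.37 over the members, 0.53 over the 25 tested receptors and 0.15 over the 16 tested ligands, beside -0.01 over all tested genes. These counts cover the members that passed the filter, and 11 of the 14 at an unadjusted p under 0.05 were receptors. Without F/F replicate 3, 6 members were called higher and 1 lower, among 1246 genes called in the whole table (8.28%), 1022 of them higher.

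**Figure D1:**
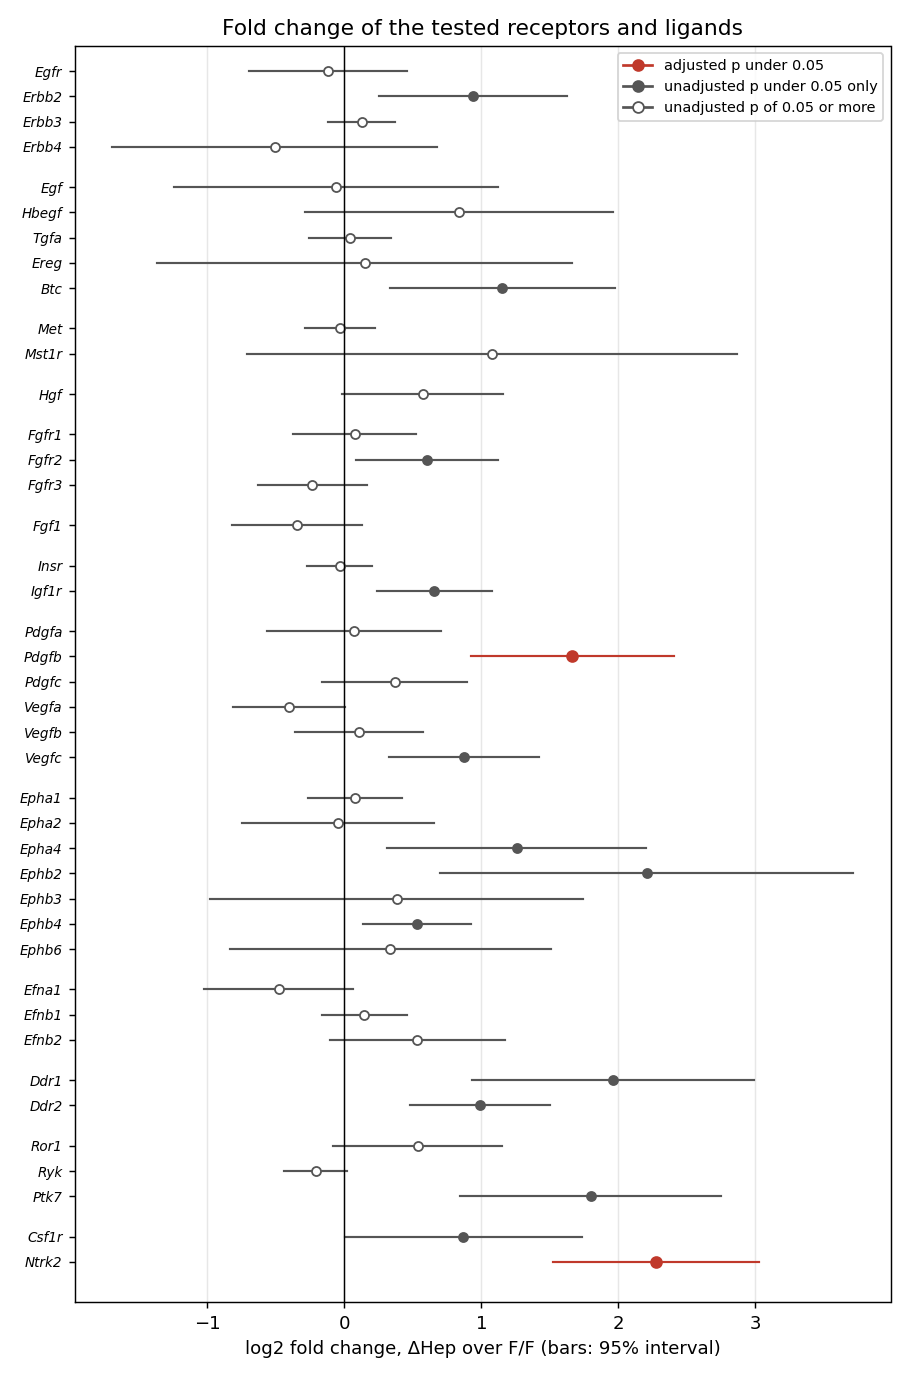
Log2 fold change of ΔHep over F/F for the 41 tested members, grouped by family, with 95% intervals from the quasi-likelihood fit. Ntrk2 (2.28) and Pdgfb (1.66) passed the adjusted threshold, the 12 filled grey points are at an unadjusted p under 0.05 only, and all of these lie to the right of zero.

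The level of each member per kb of annotated exon (CPM per kb, with the exons of all its transcripts joined) placed Egfr first in both groups. It had 68.8 ± 11.4 CPM per kb in ΔHep and 74.8 ± 24.9 CPM per kb in F/F (SD, n = 3 each, as for every mean below). Joined exons can be longer than any 1 transcript, which lowers the level of such genes, and they span 19292 bases in Ntrk2. In ΔHep, Fgf1 followed at 27.2 ± 8.73, Vegfa at 20.99 ± 0.942, Csf1r at 19.1 ± 2.97, Met at 16.1 ± 1.40, Erbb3 at 15.2 ± 1.59 and Insr at 14.7 ± 0.953 CPM per kb. In that order, the library ranges of Egfr and Fgf1 did not overlap, nor did those of Insr and the next gene, Epha1, at 9.84 CPM per kb. The order in F/F was Fgf1 at 34.6 ± 1.05, Vegfa at 27.8 ± 7.02, Met at 16.4 ± 1.29, Insr at 15.05 ± 0.358 and Erbb3 at 13.9 ± 0.275 CPM per kb, with Csf1r further down at 10.47 ± 6.75, and the ranges of Egfr, Fgf1, Vegfa, Met, Insr and Erbb3 did not overlap between neighbours. Ntrk2 ranked 27 of 43 in ΔHep, at 0.836 ± 0.150 CPM per kb, and 33 in F/F, at 0.173 ± 0.0906 CPM per kb. Of the 7 members above 10 CPM per kb in both groups, 2 had a positive fold change. Below 1 CPM per kb in both groups lay 18 members. Of the 16 of these that were tested, 14 had a positive fold change and 8 an unadjusted p under 0.05. Over all tested genes, 48.8% had a positive fold change and 21.1% an unadjusted p under 0.05. No such share was computed for all genes at this low level. A gene this low can pass the filter through the group where it is higher, as Ephb2 did through ΔHep, so these signs are partly set by the filter.

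**Figure D2:**
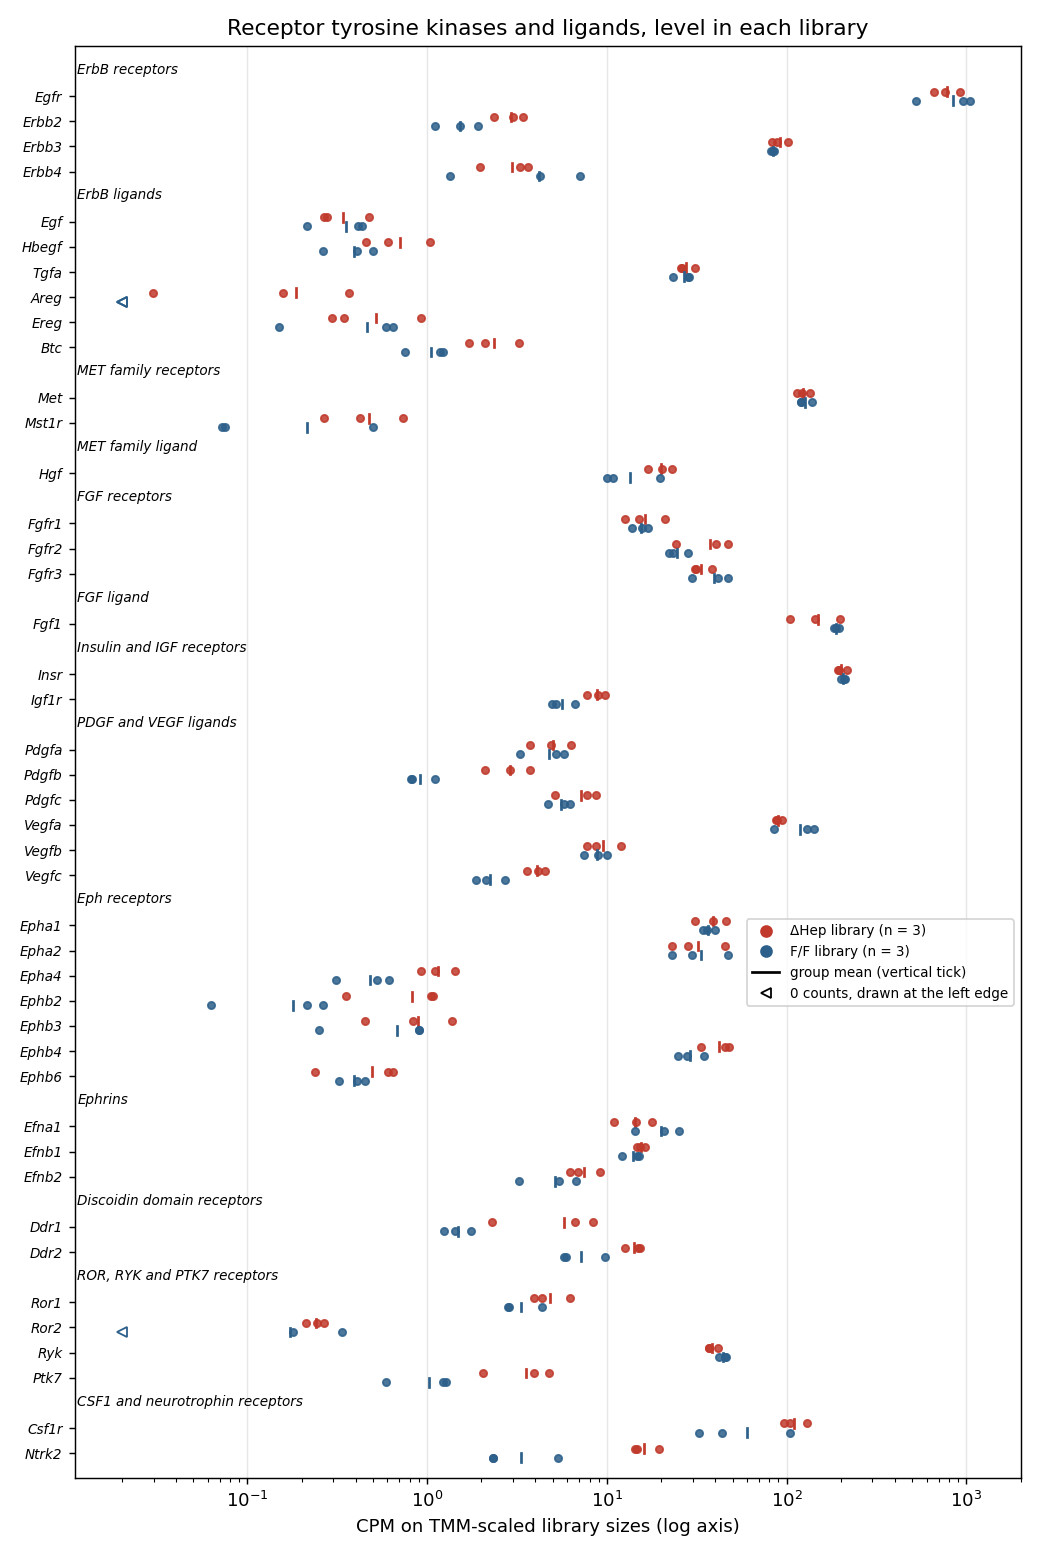
CPM of each of the 43 members in every library on a log axis, with ΔHep libraries above F/F libraries and a vertical tick at each group mean. Levels span from 0 counts (Areg in all 3 F/F libraries) to 1054 CPM (Egfr in F/F replicate 2), and the groups lie apart for Ntrk2 and Pdgfb.

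Ntrk2 lies on chromosome 13 (GRCm38, chr13:58806569-59133970, plus strand). The counts were 657, 466 and 556 in ΔHep libraries, or 19.5, 14.3 and 14.7 CPM, against 143, 75 and 65 in F/F libraries, or 5.36, 2.34 and 2.33 CPM. Every ΔHep library was above every F/F library by a wide gap, with F/F replicate 1 the highest of its group. The means were 16.1 ± 2.89 CPM in ΔHep and 3.34 ± 1.75 CPM in F/F, a log2FC of 2.28 (SE 0.33, 95% interval 1.52 to 3.03, edgeR adjusted p = 0.0329). TrkB is best known from neurons, where it supports survival and synaptic plasticity. The adjusted p was 0.0661 without ΔHep replicate 2, 0.0924 without ΔHep replicate 3 and 0.154 without F/F replicate 2, so the call was lost in each of these, with log2FC values of 2.07 or more.

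Bdnf, the main ligand of TrkB, did not pass the test. It had 1.48, 1.26 and 2.01 CPM in ΔHep, against 1.65, 1.25 and 2.65 CPM in F/F, a log2FC of -0.22 (adjusted p = 0.775), or 0.12 without F/F replicate 3. The groups overlapped. Ntf5, the gene of neurotrophin 4, was below the filter, with 1, 1 and 6 counts in ΔHep libraries and 0 in all 3 F/F libraries. Ntf3, whose product binds mainly TrkC, had a log2FC of 1.38 that did not pass (adjusted p = 0.130).

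The sequence around the start of Ntrk2 is shown because it belongs to the receptor with the largest fold change of the 41 tested members. It is the RefSeq promoter window of GRCm38.p6, chr13:58806319-58806618 on the plus strand, from 250 bases before the annotated start to 50 after it, 5′ to 3′.
Ntrk2 promoter: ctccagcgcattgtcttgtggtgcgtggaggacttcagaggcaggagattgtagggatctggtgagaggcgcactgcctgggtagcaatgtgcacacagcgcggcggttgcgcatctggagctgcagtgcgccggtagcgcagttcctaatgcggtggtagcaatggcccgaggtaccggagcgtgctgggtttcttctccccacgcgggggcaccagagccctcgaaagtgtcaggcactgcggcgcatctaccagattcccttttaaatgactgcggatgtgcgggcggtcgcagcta
It holds 23 CpG dinucleotides, where the median promoter in the table holds 7 and 80.0% hold no more than 23. Its GC content was 61.3%, against a median of 52.7%.

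Because Ripply1 acts with T-box factors, the core of the T-box element, AGGTGT, was searched on both strands of the member promoters, which gave these 3 matches. Capitals mark the match, in plus-strand letters of GRCm38.p6, so that ACACCT is the same core on the other strand.
Ror1, chr4:100095680-100095709: tgggttaacaggAGGTGTggtagctgcttt
Fgfr3, chr5:33721474-33721502: aagacgccctaACACCTagacccccaccg
Tgfa, chr6:86195116-86195145: agcactgcagggAGGTGTctgaagccaggc
The matches began 99, 239 and 94 bases before the start of Ror1, Fgfr3 and Tgfa. None of these 3 genes passed the test, as given below with their families. The core was in 3 of 45 promoters of the 35 members with an entry (6.67%), against 4514 of 32851 promoters in the whole table (13.7%). The longer form AGGTGTGA, which contains the core, was in 0 of the 45 and in 1.28% of all. The promoters of Erbb3, Hbegf, Ereg, Fgfr1, Fgf1, Insr, Pdgfb and Csf1r had no entry. A match is a match of letters only and says nothing of binding.

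The PDGF and VEGF ligands held the only ligand past the threshold. Pdgfb (GRCm38, chr15:79995874-80014977, minus strand) encodes a chain whose dimer binds both PDGF receptors and drives proliferation of stellate cells and pericytes. It had 71, 94 and 141 counts in ΔHep libraries, or 2.10, 2.88 and 3.72 CPM, against 22, 26 and 31 counts in F/F libraries, or 0.825, 0.810 and 1.11 CPM. The groups were clearly apart, and the ΔHep libraries varied more among themselves than the F/F libraries did. Means were 2.90 ± 0.810 CPM in ΔHep and 0.916 ± 0.170 CPM in F/F, a log2FC of 1.66 (SE 0.32, 95% interval 0.92 to 2.40, edgeR adjusted p = 0.0469). This call lies close to the threshold. Its adjusted p was 0.0654 with limma-voom, 0.103 without ΔHep replicate 2, 0.155 without ΔHep replicate 3, 0.187 without F/F replicate 1 and 0.183 without F/F replicate 2.

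Both PDGF receptors rose with it. Pdgfra, the alpha receptor of fibroblasts and stellate cells, had 18.5, 26.6 and 19.0 CPM in ΔHep libraries, against 7.35, 7.61 and 11.7 CPM in F/F libraries. Its log2FC was 1.26 (SE 0.23, adjusted p = 0.0417), and 6.50% of its exon bases overlap other annotated genes, where the strand setting of the counting is not given. Pdgfrb, the beta receptor of pericytes and stellate cells, had 13.8, 24.7 and 23.6 CPM in ΔHep, against 8.21, 8.29 and 10.7 CPM in F/F, a log2FC of 1.19 (SE 0.23, adjusted p = 0.0482). Both genes were higher in every ΔHep library than in every F/F library. The stellate and fibroblast marker sum was higher in every ΔHep library too, at 682, 909.7 and 880.0 CPM, against 334, 378 and 514 CPM in F/F, and its part in the PDGF result was not tested. The adjusted p exceeded 0.05 for both receptors with limma-voom and without each of ΔHep replicate 2, ΔHep replicate 3, F/F replicate 1 and F/F replicate 2, reaching 0.170 for Pdgfra and 0.192 for Pdgfrb.

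Pdgfd, another ligand of the beta receptor and no member of the 43, had 4.09, 4.10 and 3.83 CPM in ΔHep, against 1.65, 1.03 and 1.76 CPM in F/F, a log2FC of 1.44 (SE 0.27, adjusted p = 0.0449). Pdgfa and Pdgfc, the other PDGF ligands, did not pass. Pdgfa had 3.73, 4.87 and 6.34 CPM in ΔHep and 5.74, 5.21 and 3.30 CPM in F/F, with overlapping groups and a log2FC of 0.07 (adjusted p = 0.913), and 26.1% of its exon bases overlap an antisense gene. Pdgfc had 8.71, 7.74 and 5.12 CPM in ΔHep and 6.22, 5.80 and 4.70 CPM in F/F, a log2FC of 0.37 (adjusted p = 0.400).

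Vegfa, the main angiogenic factor, had 94.6, 87.1 and 88.1 CPM in ΔHep libraries, against 142, 129.7 and 85.1 CPM in F/F libraries. F/F replicate 3 was the lowest of all 6 libraries, so the groups overlapped. The log2FC was -0.40 (SE 0.18, 95% interval -0.81 to 0.00, adjusted p = 0.240). Without F/F replicate 3 it was -0.61 with an adjusted p of 0.0199, past the threshold. Vegfc, the lymphangiogenic ligand of VEGFR3, had 4.12, 3.58 and 4.54 CPM in ΔHep, against 2.699, 2.12 and 1.86 CPM in F/F. Its groups did not overlap, and its log2FC of 0.87 (SE 0.24, adjusted p = 0.0944) did not pass with edgeR but did with DESeq2 (adjusted p = 0.0319). Vegfb had 7.76, 8.69 and 12.04 CPM in ΔHep and 10.05, 8.95 and 7.49 CPM in F/F, a log2FC of 0.11. Per kb, Vegfa made up 60.7% to 69.0% of the summed level of the 6 PDGF and VEGF ligands in ΔHep libraries, and 72.1% to 76.2% in F/F libraries.

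The VEGF receptors, which are no members, had positive fold changes that did not pass. Kdr, or VEGFR2, had 78.4, 76.2 and 71.6 CPM in ΔHep, against 40.9, 51.7 and 68.2 CPM in F/F, a log2FC of 0.49 (adjusted p = 0.159). Flt1, or VEGFR1, had a log2FC of 0.64 (adjusted p = 0.194) and Flt4, or VEGFR3, of 0.56 (adjusted p = 0.177). Without F/F replicate 3, the highest F/F library for all 3, each passed, at 0.69 for Kdr (adjusted p = 0.0220), 0.97 for Flt1 (adjusted p = 0.0195) and 0.84 for Flt4 (adjusted p = 0.0140). The endothelial marker sum was 576, 515 and 636 CPM in ΔHep, against 298, 352 and 468 CPM in F/F, and its part in these values was not tested.

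Of the 4 ErbB receptors and 5 tested ErbB ligands, 0 passed with edgeR, DESeq2 or limma-voom, and Erbb2 and Btc were at an unadjusted p under 0.05 in edgeR. Egfr, the receptor of most of these ligands, had 758, 918 and 662 CPM in ΔHep libraries, against 962, 1054 and 525 CPM in F/F libraries. F/F libraries held both the highest and the lowest value. Its log2FC was -0.12 (95% interval -0.70 to 0.46, adjusted p = 0.825), and it was 0.06 without F/F replicate 2. Egfr supplied most of the ErbB receptor mRNA per kb, 79.0% to 84.7% in ΔHep and 75.7% to 86.6% in F/F. Erbb3, the neuregulin-binding receptor with an impaired kinase, had 102, 83.1 and 88.8 CPM in ΔHep and 81.8, 84.2 and 84.97 CPM in F/F, a log2FC of 0.13 (95% interval -0.12 to 0.37, adjusted p = 0.539).

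Erbb2, the co-receptor without a ligand of its own, was much scarcer. It had 2.99, 3.40 and 2.35 CPM in ΔHep, against 1.91, 1.53 and 1.11 CPM in F/F. All ΔHep libraries were above all F/F libraries, and the log2FC of 0.94 (SE 0.30, adjusted p = 0.134) did not pass. Erbb4, another neuregulin receptor, had 3.61, 1.96 and 3.27 CPM in ΔHep and 4.24, 1.34 and 7.06 CPM in F/F. The F/F libraries spanned the whole ΔHep range, and the log2FC was -0.51 (95% interval -1.70 to 0.68, adjusted p = 0.619), or 0.08 without F/F replicate 3.

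Tgfa was the most abundant ErbB ligand, with 26.0, 31.1 and 25.8 CPM in ΔHep, against 23.3, 28.4 and 28.7 CPM in F/F. Groups overlapped, with a log2FC of 0.04 (95% interval -0.26 to 0.34, adjusted p = 0.886). Btc, betacellulin, had 1.72, 3.24 and 2.09 CPM in ΔHep, against 0.750, 1.18 and 1.22 CPM in F/F. Its groups did not overlap, and the log2FC was 1.15 (SE 0.36, adjusted p = 0.127). Per kb, Tgfa made up 77.9% to 84.9% of the summed ErbB ligands in ΔHep and 89.0% to 92.5% in F/F. Egf, Hbegf and Ereg lay between 0.150 and 1.04 CPM in every library, with log2FC values of -0.06, 0.84 and 0.15 and overlapping groups. Areg, amphiregulin, was below the filter, with 1, 12 and 6 counts in ΔHep libraries and 0 in every F/F library. Set against a floor of 3 counts over the F/F group, the pooled 19 counts in ΔHep were at least 5.26-fold higher, and the exact two-sided permutation p of its CPM was 0.1.

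Nrg1, the neuregulin that binds ErbB3 and ErbB4 and is no member, rose. It had 1.10, 2.14 and 1.53 CPM in ΔHep, against 0.375, 0.343 and 0.359 CPM in F/F, a log2FC of 2.14 (SE 0.40, adjusted p = 0.0449). Its receptors had the log2FC values of 0.13 and -0.51 given above. Nrg4, another neuregulin and no member, had a log2FC of 0.55 (adjusted p = 0.194). Nrg1 did not pass with limma-voom, nor without each of ΔHep replicate 2, ΔHep replicate 3, F/F replicate 1 and F/F replicate 2, where its adjusted p reached 0.179.

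Met, the receptor of hepatocyte growth factor, had 121, 135 and 114 CPM in ΔHep libraries, against 120.4, 121 and 138 CPM in F/F libraries. The ranges were nearly the same, with a log2FC of -0.03 (95% interval -0.29 to 0.22, adjusted p = 0.896). Hgf, its ligand, which in liver comes mainly from stellate and endothelial cells, had 20.2, 23.1 and 16.9 CPM in ΔHep, against 10.05, 10.8 and 19.6 CPM in F/F. F/F replicate 3 lay inside the ΔHep range. The log2FC of 0.57 (SE 0.26, 95% interval -0.02 to 1.16, adjusted p = 0.249) did not pass, while without F/F replicate 3 it was 0.93 (adjusted p = 0.0209). Mst1r, the RON receptor of macrophage-stimulating protein, had 0.267, 0.735 and 0.423 CPM in ΔHep and 0.0750, 0.499 and 0.0717 CPM in F/F, a log2FC of 1.08 (adjusted p = 0.466). Its ligand Mst1 had a log2FC of 0.01 (adjusted p = 0.980).

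Among FGF receptors, Fgfr2 was at an unadjusted p under 0.05. It had 24.2, 40.6 and 47.0 CPM in ΔHep, against 22.1, 28.1 and 23.4 CPM in F/F. ΔHep replicate 1 lay among the F/F libraries, and the log2FC was 0.60 (SE 0.23, adjusted p = 0.187), or 0.84 without that replicate (adjusted p = 0.0481). Fgfr1 had 15.1, 21.1 and 12.7 CPM in ΔHep and 16.98, 13.8 and 15.6 CPM in F/F, a log2FC of 0.07 (adjusted p = 0.865). Fgfr3, whose promoter holds the T-box core shown above, had 31.2, 38.3 and 31.0 CPM in ΔHep and 41.4, 47.1 and 29.7 CPM in F/F, a log2FC of -0.23 (adjusted p = 0.477). Both had overlapping groups, and 13.9% of the exon bases of Fgfr3 overlap an antisense gene. Fgf1, a ligand of all FGF receptors, had 199, 143 and 104 CPM in ΔHep, against 188, 195 and 184 CPM in F/F. The F/F libraries lay close together and inside the ΔHep range, with a log2FC of -0.35 (95% interval -0.82 to 0.13, adjusted p = 0.374). Fgfr4, the hepatocyte FGF receptor and no member, had a log2FC of -0.10.

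Insr, the insulin receptor, had 217, 193 and 196 CPM in ΔHep, against 201, 210.5 and 209 CPM in F/F, with overlapping groups and a log2FC of -0.04 (95% interval -0.27 to 0.20, adjusted p = 0.881). Igf1r, which hepatocytes are known to carry little of, had 8.95, 9.73 and 7.76 CPM in ΔHep, against 5.17, 4.92 and 6.67 CPM in F/F. Groups did not overlap for Igf1r, and its log2FC of 0.66 (SE 0.18, adjusted p = 0.0987) did not pass with edgeR but did with DESeq2 (adjusted p = 0.0393) and, in edgeR, without F/F replicate 3 (0.79, adjusted p = 0.0364). Igf1, the liver-made ligand and no member, had 652, 547 and 522 CPM in ΔHep, against 907, 765 and 831 CPM in F/F. Every ΔHep library was below every F/F library, and its log2FC of -0.54 (SE 0.14, adjusted p = 0.0789) did not pass. Igf2 had a log2FC of 0.67 (adjusted p = 0.352). Igf1 and its receptor thus had fold changes of opposite sign.

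Of the 7 Eph receptors, 0 passed with edgeR, DESeq2 or limma-voom, and 3 were at an unadjusted p under 0.05 in edgeR. Epha1 was the highest of them per kb, at 9.84 CPM per kb in ΔHep and 9.34 CPM per kb in F/F, and Ephb4 had 9.07 CPM per kb in ΔHep and 6.28 CPM per kb in F/F. Ephb4, the venous endothelial receptor of ephrin-B2, had 33.2, 45.3 and 47.7 CPM in ΔHep, against 24.9, 27.8 and 34.7 CPM in F/F. ΔHep replicate 1 lay just below F/F replicate 3, and the log2FC was 0.53 (SE 0.17, adjusted p = 0.139). Ephb2, a receptor of intestinal progenitor cells, had 12, 35 and 40 counts in ΔHep libraries, or 0.355, 1.07 and 1.06 CPM, against 7, 2 and 6 counts in F/F libraries, or 0.262, 0.0623 and 0.215 CPM. Its log2FC of 2.21 was close to that of Ntrk2, with an error of SE 0.66 and an adjusted p of 0.116. Epha4 had 0.918, 1.10 and 1.43 CPM in ΔHep, against 0.525, 0.312 and 0.610 CPM in F/F, a log2FC of 1.26 (SE 0.41, adjusted p = 0.143). For Ephb2 and Epha4 every ΔHep library was above every F/F library.

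The other Eph receptors, Epha1, Epha2, Ephb3 and Ephb6, overlapped between groups, with log2FC values of 0.08, -0.05, 0.38 and 0.34. Epha1 had 31.0, 38.9 and 46.1 CPM in ΔHep and 35.95, 39.8 and 34.3 CPM in F/F, and 6.01% of its exon bases overlap the antisense gene Zyx. Ephrins are membrane-bound, so they signal between touching cells. Efna1 had 14.5, 10.96 and 17.7 CPM in ΔHep and 20.8, 25.1 and 14.3 CPM in F/F, a log2FC of -0.48 (adjusted p = 0.288). Efnb1 and Efnb2 had log2FC values of 0.14 (adjusted p = 0.582) and 0.53 (adjusted p = 0.315), with overlapping groups. With edgeR, DESeq2 and limma-voom, 0 ephrins passed, and in edgeR 0 were at an unadjusted p under 0.05.

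Discoidin domain receptors are receptor tyrosine kinases that bind fibrillar collagen in place of a growth factor. Ddr1, the epithelial member, had 2.28, 8.39 and 6.60 CPM in ΔHep, against 1.24, 1.43 and 1.76 CPM in F/F. ΔHep replicate 1 was well below the other ΔHep libraries and still above every F/F library. Its log2FC was 1.96 (SE 0.45, adjusted p = 0.0653), and it was 2.34 without ΔHep replicate 1 (adjusted p = 0.0178). Ddr2, the member of mesenchymal cells, had 14.8, 15.2 and 12.6 CPM in ΔHep, against 5.92, 5.74 and 9.79 CPM in F/F. No ΔHep library overlapped with F/F, and the log2FC was 0.99 (SE 0.22, adjusted p = 0.0640), or 1.27 without F/F replicate 3 (adjusted p = 0.00937). DESeq2 called both, with adjusted p-values of 0.000404 for Ddr1 and 0.00197 for Ddr2.

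Of their collagen ligands, Col1a1 rose. Col1a1, a chain of type I collagen and one of the stellate cell markers summed above, had 32.7, 71.2 and 87.0 CPM in ΔHep, against 15.4, 17.1 and 24.0 CPM in F/F, a log2FC of 1.76 (adjusted p = 0.0449). The Col1a1 call was lost with limma-voom (adjusted p = 0.0644) and without each of ΔHep replicate 2, ΔHep replicate 3, F/F replicate 1 and F/F replicate 2, where its adjusted p lay between 0.102 and 0.186. Col3a1 had a log2FC of 1.91 that did not pass (adjusted p = 0.0590), while it passed with DESeq2 (adjusted p = 0.0116), without ΔHep replicate 1 (adjusted p = 0.0333) and without F/F replicate 3 (2.39, adjusted p = 0.0149). Ddr1 was highest in ΔHep replicate 2, the library with the highest cholangiocyte marker sum, at 172 CPM. The other ΔHep libraries had sums of 95.8 and 91.0 CPM, and F/F libraries had 52.1, 50.8 and 108 CPM. The other libraries did not keep that order. ΔHep replicate 3, with the lowest ΔHep sum, had 6.60 CPM of Ddr1, and ΔHep replicate 1 had 2.28 CPM. F/F replicate 3, with a sum of 108 CPM, had 1.76 CPM of Ddr1. The part of stellate cells and cholangiocytes in these values was not tested.

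Ptk7, Ror1, Ror2 and Ryk are receptors linked to non-canonical WNT signalling. Ptk7, which has an inactive kinase and acts in planar cell polarity, had 2.04, 4.74 and 3.91 CPM in ΔHep, against 1.27, 0.592 and 1.22 CPM in F/F. Its groups did not overlap, and the log2FC of 1.80 (SE 0.42, adjusted p = 0.0666) did not pass in edgeR, whereas DESeq2 gave an adjusted p of 0.00137 and edgeR without ΔHep replicate 1 gave 2.08 (adjusted p = 0.0481). Ryk, a WNT receptor with an inactive kinase, had 41.5, 37.0 and 36.8 CPM in ΔHep, against 45.6, 46.1 and 41.8 CPM in F/F. It was the member with every ΔHep library below every F/F library, by a narrow gap, and its log2FC was -0.21 (SE 0.10, adjusted p = 0.269). Ror1 had 4.35, 6.21 and 3.93 CPM in ΔHep and 4.35, 2.84 and 2.83 CPM in F/F, a log2FC of 0.53 (adjusted p = 0.296). Ror2 was below the filter, with 9, 8 and 8 counts in ΔHep libraries and 9, 0 and 5 in F/F libraries (exact two-sided permutation p of the CPM = 0.7). Wnt5a, the ligand of ROR receptors, had a log2FC of 0.97 (adjusted p = 0.216).

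Csf1r, the receptor through which CSF1 and IL-34 keep macrophages alive, had 129, 96.9 and 104 CPM in ΔHep, against 32.7, 43.7 and 105 CPM in F/F. F/F replicate 3 lay inside the ΔHep range. The log2FC was 0.87 (SE 0.38, adjusted p = 0.237), and without F/F replicate 3 it was 1.52 (adjusted p = 0.00921), past the threshold. The macrophage marker sum had the same shape, with 580.0, 457 and 486 CPM in ΔHep and 213, 248 and 546 CPM in F/F, and its part in the Csf1r values was not tested. Its ligands Csf1 and Il34 had log2FC values of 0.11 (adjusted p = 0.873) and 0.21 (adjusted p = 0.713). In Csf1r, 15.1% of the exon bases overlap the antisense gene Hmgxb3.

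**Figure D3:**
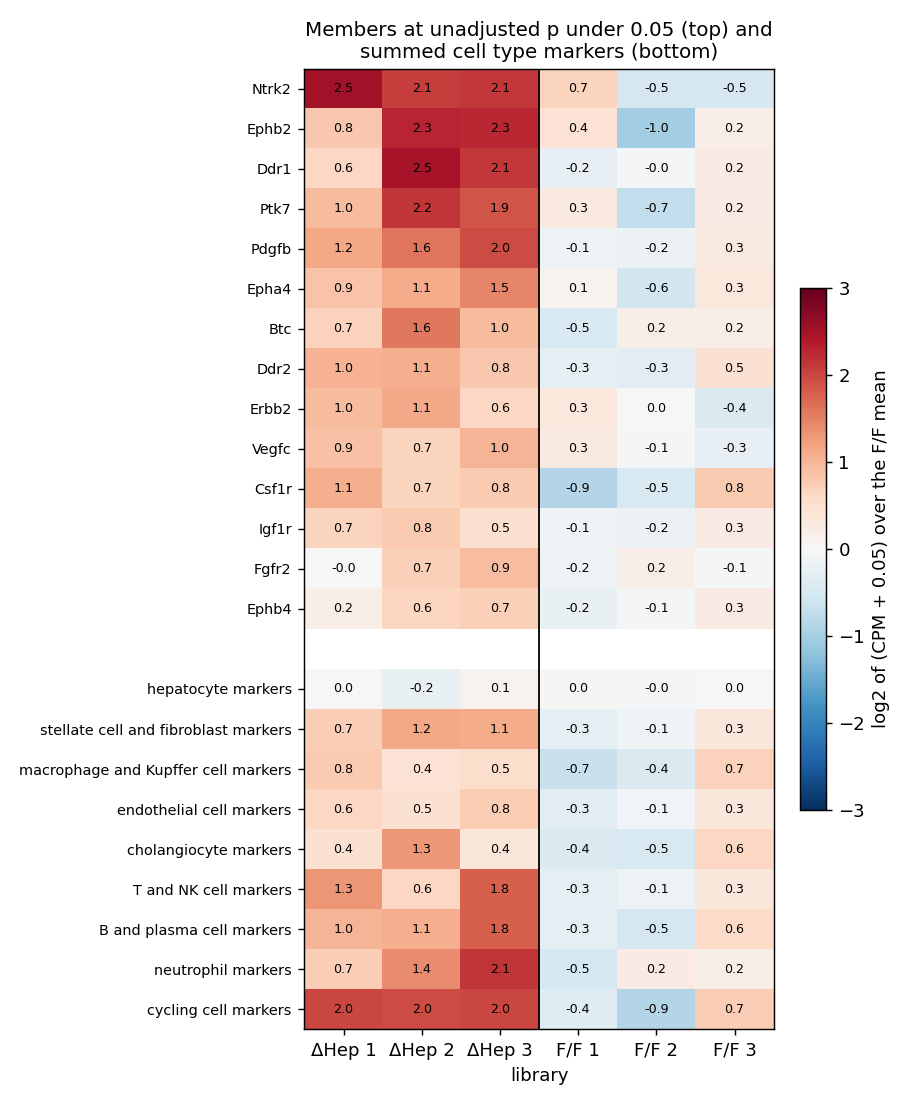
The 14 members at an unadjusted p under 0.05 (top) and the summed markers of 9 cell types or states (bottom) in each library, as log2 of CPM + 0.05 over the F/F mean. Csf1r and the macrophage markers are both high in F/F replicate 3, while Ntrk2 and Pdgfb are higher in all 3 ΔHep libraries than in any F/F library.

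Ligands and receptors were then read as 49 known pairs, 46 of them with both genes tested. In 2 pairs, Pdgfb with Pdgfra and Pdgfb with Pdgfrb, both genes passed the threshold, and both rose. In 7 pairs 1 gene passed, and in 37 neither did. Using the library ranges alone, 7 pairs had both genes higher in every ΔHep library than in every F/F library, and 0 pairs had both lower. Beside the PDGF pairs these were Col1a1 with Ddr1, Col1a1 with Ddr2, Col3a1 with Ddr2, Vegfc with Kdr, and Igf2 with Igf1r. The unadjusted p of Igf2 in edgeR was 0.116. Among all tested genes taken singly, 15.3% were higher in ΔHep without overlap and 11.8% were lower. No such share was computed for pairs of genes. Pairs that share a gene are not independent, and they come from the same libraries. Fold changes had the same sign in 26 pairs and opposite signs in 20. Ntrk2 rose while Bdnf did not pass, and Nrg1 rose while Erbb3 and Erbb4 did not pass. The count of 2 pairs became 5 with DESeq2 and 0 with limma-voom, and it was between 0 and 4 when 1 library was left out.

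**Figure D4:**
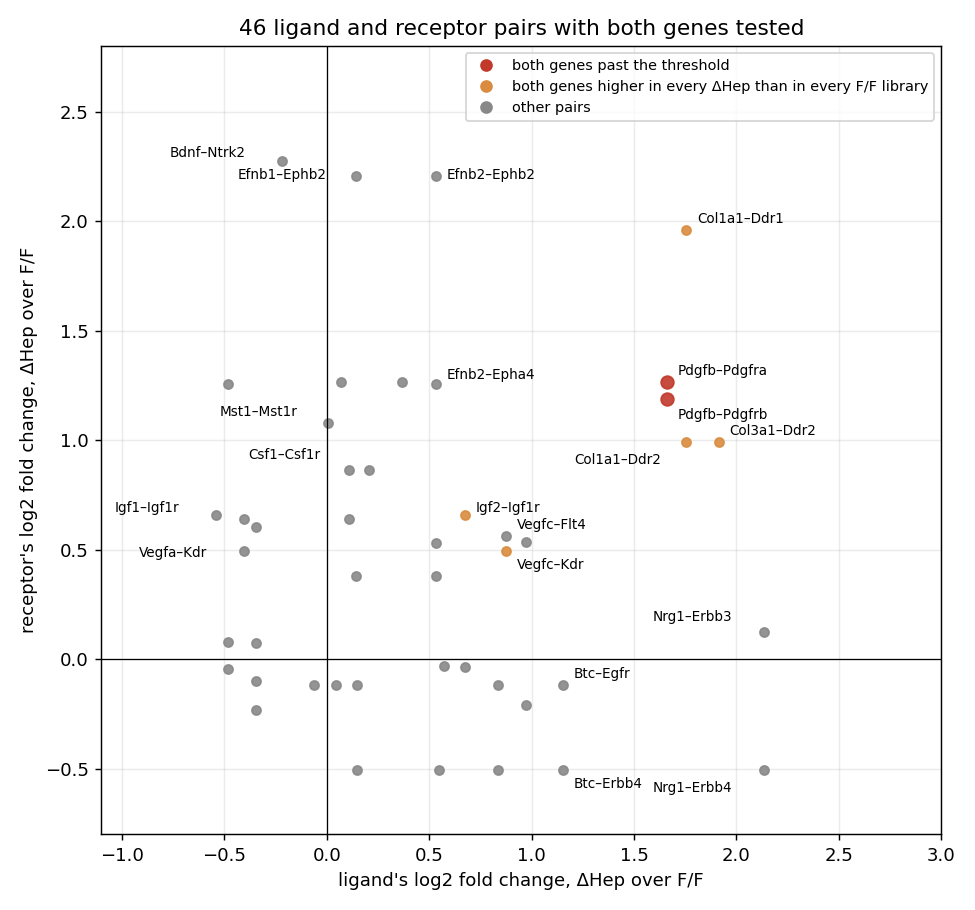
Log2 fold change (ΔHep over F/F) of the ligand against that of its receptor for the 46 pairs with both genes tested. The 2 red points at the right are Pdgfb (1.66) with Pdgfra (1.26) and with Pdgfrb (1.19), and Bdnf–Ntrk2 lies at the top left with a ligand value of -0.22.

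Around the members, 5 lists of related genes held 125 symbols, of which 107 were in the table and 95 were tested. Past the threshold were 8 higher (8.42%) and 1 lower, against 1.51% higher and 0.165% lower of all tested genes. The count of higher genes was 22 without F/F replicate 3, a fit in which 1246 genes of the whole table passed (8.28%). It was 12 with DESeq2, where 8.09% of the whole table passed, and 2 with limma-voom, where 0.605% did. Without ΔHep replicate 1 the count was 6, with 1.44% of the whole table passing. It was 0 without each of ΔHep replicate 2, ΔHep replicate 3, F/F replicate 1 and F/F replicate 2. Of 19 other receptor tyrosine kinases tested, 2 were higher, Pdgfra and Pdgfrb, and 1 was lower, with a median log2FC of 0.49. Higher were 9 without F/F replicate 3 (median 0.69), 5 with DESeq2 and 0 with limma-voom. The lower one was Aatk, a kinase of the lemur family, with 3.14, 4.41 and 3.33 CPM in ΔHep, against 10.9, 9.13 and 13.1 CPM in F/F, a log2FC of -1.61 (SE 0.21, adjusted p = 0.0329). Of 21 other ligands tested, 3 were higher and 0 lower, with a median of 0.57, and in edgeR 1 was lower at an unadjusted p under 0.05, while DESeq2 called 1 lower and limma-voom 0. Without F/F replicate 3 also 3 were higher, and with limma-voom 1. They were Nrg1, Pdgfd and Gas6, the ligand of the TAM receptors. Gas6 had 58.4, 81.4 and 64.5 CPM in ΔHep, against 34.3, 41.6 and 37.4 CPM in F/F, a log2FC of 0.85 (SE 0.14, adjusted p = 0.0366).

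Among 18 genes of ligand processing and co-receptors, 2 rose (11.1%, against 1.51% of all tested genes), with a median of 0.23. The count was 4 without F/F replicate 3, 3 with DESeq2 and 1 with limma-voom. Rhbdf1, the iRhom that helps ADAM17 reach the surface where it sheds ErbB ligands, had 9.45, 10.96 and 9.72 CPM in ΔHep, against 4.76, 5.02 and 5.41 CPM in F/F, a log2FC of 0.99 (SE 0.15, adjusted p = 0.0329). St14, matriptase, a protease that can activate pro-HGF, had 2.87, 2.97 and 2.51 CPM in ΔHep, against 0.487, 0.935 and 0.896 CPM in F/F, a log2FC of 1.84 (SE 0.33, adjusted p = 0.0417). Of 23 adaptors and proximal signalling genes tested, Shc2 alone passed (4.35%), and the median of the list was 0.06. Without F/F replicate 3, 3 adaptors passed, and with limma-voom 0. Shc2 had 1.45, 3.55 and 5.52 CPM in ΔHep, against 2, 1 and 1 counts in F/F libraries, a log2FC of 6.13 (SE 0.70, adjusted p = 0.0329) whose size rests on those 4 counts. Shc2 passed the filter on low counts only through the ΔHep libraries, where it was high. Of 14 genes of receptor inhibition and degradation, 0 passed with edgeR, DESeq2 or limma-voom, 2 were at an unadjusted p under 0.05 in edgeR, and the median was 0.11. Without F/F replicate 3, edgeR called 3 of the 14 higher, with 7 higher at an unadjusted p under 0.05 and a median of 0.22. The calls of Aatk, Gas6, Rhbdf1, St14, Shc2 and Pdgfd were each lost without ΔHep replicate 2, without ΔHep replicate 3, without F/F replicate 1 and without F/F replicate 2. In these fits 4, 5, 2 and 1 genes of the whole table passed, and adjusted p-values of the 6 genes reached no higher than 0.169. Pdgfd and St14 were also lost with limma-voom (adjusted p = 0.0525 for each) and without ΔHep replicate 1 (adjusted p = 0.0790 for Pdgfd and 0.0702 for St14), and Shc2 with limma-voom (adjusted p = 0.0589).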

How the data were processed

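The authors deposited raw counts of reads for each gene symbol in 6 library columns. HISAT2 2.0.4 aligned the reads to mm10, per the submitters' processing notes. How reads were counted, with which annotation, strand setting and gene filter, is not given in the sources used here. Genes that overlap others are therefore uncertain, and their shared exon share is printed. The whole table was fitted with edgeR 4.0.16 (R 4.3.3): filterByExpr with a minimum count of 10 and minimum total of 15, TMM scaling, the quasi-likelihood F test, two-sided, and Benjamini-Hochberg adjustment over 14552 genes. SE is the fold change divided by the square root of F. Alternatives were DESeq2 1.42.0, limma-voom 3.58.1, other scalings, no filter, a replicate block and each library left out. In simulated counts with the same library sizes, 46 of 100 genes changed 2-fold and 98 of 100 changed 4-fold were called. Every simulated gene had the same dispersion (biological coefficient of variation 21.5%), whereas real genes differ in theirs. In the data, Ephb2 (4.62-fold), Ddr1 (3.89-fold) and Ptk7 (3.48-fold) were not called. The simulated shares therefore do not tell whether a member that was not called was unchanged. Levels per kb divide CPM by the exon union of GENCODE M21 (GRCm38). Promoters are RefSeq's. Libraries of 1 group differed by more than sampling noise (chi-square per degree of freedom 17.9 to 106).

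Members, gene lists and pairs were chosen with earlier results of these data known. Library values are given for members past the threshold, for those at an unadjusted p under 0.05, and for the highest members of each family, and for others where useful. Of each related list, up to 5 genes past the threshold with the largest fold change are named, along with partners in pairs. The listed markers Pdpn, Cldn7, Cd2, Trbc2, Igkc and Ly6g were not analysed here.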

Additional observations from a re-analysis of the deposited data

How the results depend on the processing

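Of 41 tested members in 12 alternatives, 439 values kept their direction and side of the threshold, 16 passed it newly, 9 no longer passed and 28 changed sign. Genes called numbered 244, against 250 with DESeq2's size factors in edgeR, 644 with library totals, 248 without a filter, 1304 with DESeq2, 88 with limma-voom and 236 with the replicate block. Leaving out 1 library gave 1 to 1246 (215, 4 and 5 without ΔHep replicates 1, 2 and 3, and 2, 1 and 1246 without F/F replicates 1, 2 and 3). The share of the whole table called was 1.68% in the main fit, 4.43% with library totals, 8.09% with DESeq2 and 8.28% without F/F replicate 3. Members higher in ΔHep numbered 2, against 5 with library totals, 7 with DESeq2, 1 with limma-voom, 1 with the replicate block (Ntrk2), and 0 to 6 with 1 library left out. Members lower numbered 0 in all of these except 1, Vegfa, without F/F replicate 3. Pairs with both genes past the threshold numbered 2, against 5 with library totals, 5 with DESeq2, 0 with limma-voom, 0 with the replicate block and 0 to 4 with 1 library left out. The cause was not tested. Depth limits the low members: Areg and Ror2, with 0 to 12 counts a library, were below the filter. Members called with library totals were Pdgfb, Ddr1, Ddr2, Ptk7 and Ntrk2, and DESeq2 added Igf1r and Vegfc to these. The median of all genes was 0.08 with library totals. The median over members lay between 0.19 and 0.45 in the alternatives.

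Deviations from the group means correlated at 0.15, -0.08 and -0.02 between libraries that share the numbers 1, 2 and 3. Between libraries of unlike number they correlated at -0.13 to 0.15. With so few libraries, these values cannot tell whether the shared numbers pair them, and the main fit left them unpaired. With the replicate block, Pdgfb had a log2 fold change of 1.64 and an adjusted p of 0.0576. Among the related genes named, the block ended the calls of Pdgfra (adjusted p = 0.0552), Nrg1 (0.0706), Pdgfd (0.0638) and St14 (0.0614), and related genes called higher numbered 4, against 8.

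With library totals, the log2 fold change became 0.033 for Egf, 0.061 for Met, 0.057 for Insr and 0.030 for Epha2. With 1 library left out, it ran from -0.38 to 0.064 for Egfr (positive without F/F replicate 2), -0.94 to 0.082 for Erbb4 (positive without F/F replicate 3) and -0.39 to 0.12 for Egf. The range was -0.051 to 0.090 for Tgfa, -0.54 to 0.44 for Ereg, -0.11 to 0.025 for Met and -0.16 to 0.23 for Fgfr1. It was -0.14 to 0.24 for Pdgfa, -0.10 to 0.23 for Vegfb, -0.073 to 0.21 for Epha1, -0.38 to 0.29 for Epha2 and -0.088 to 0.70 for Ephb3. For Bdnf, a partner of Ntrk2, it was -0.45 to 0.12.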
